A study of Homo sapiens with 6 samples.

Results

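Laminin chains are the building blocks of the main adhesive protein of basement membranes, and 9 genes that encode them (LAMA1, LAMA2, LAMA3, LAMA4, LAMA5, LAMB1, LAMB2, LAMB3 and LAMC1) were followed here among the 62703 genes of the deposited count table. They were picked by symbol, and the family was proposed with the difference in LAMA3 between the hydrogels already known, so the fold changes of these 9 genes are descriptions of these libraries and not independent evidence. The cells were A549, a long-established line from a human lung adenocarcinoma, grown in S-AlgLung hydrogels (3 RNA libraries) or AlgLung hydrogels (3 RNA libraries). The labels give the same serum-containing medium for all of them. The labels do not spell out the S, and the series title concerns sulfation of the extracellular matrix. They also do not say whether the libraries were separate cultures, so the spread between them may be technical.

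A laminin is a cross-shaped trimer of an alpha, a beta and a gamma chain, joined in a coiled coil before secretion. The alpha chain carries the globular domains that integrins and dystroglycan bind, and the arms of the beta, gamma and full-length alpha chains link laminins into a sheet. Trimers are named by their chains. Laminin 332 (LAMA3 and LAMB3 with a gamma chain not analysed here) anchors epithelial cells at hemidesmosomes. Laminins 511 and 521 (LAMA5 with LAMB1 or LAMB2 and LAMC1) are the widespread laminins of adult epithelial basement membranes, including those of the lung. Laminins 411 and 421 (LAMA4) are typical of vessels, laminins 211 and 221 (LAMA2) of muscle and peripheral nerve, and laminin 111 (LAMA1) of the early embryo. LAMA3 also occurs with LAMC1 in laminins 311 and 321.

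In S-AlgLung, LAMA3 was 6.54-fold lower than in AlgLung, and the other 6 chains with enough counts to test did not pass the threshold (a Benjamini-Hochberg adjusted p under 0.05 in edgeR's quasi-likelihood test). Of all 18544 genes tested, 1.99% were called lower and 3.15% higher, and since LAMA3 was known to be among them nothing is read from that comparison. LAMB2 and LAMA5 were the most abundant chains per kilobase of exon in both hydrogels, and the 4 chains of laminins 511 and 521 differed between the hydrogels by at most 0.45 on the log2 scale. LAMB3, the beta partner of LAMA3, was at -0.34, which did not pass. LAMA3 ranked below LAMA4 in each S-AlgLung library and above it in each AlgLung library, per kilobase of exon. That order depends on the length used: without length division LAMA3 was above LAMA4 in S-AlgLung replicate 3 (6.08 and 5.72 CPM).

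The sequences just upstream of the transcript starts are shown for LAMA3 and LAMB3 and, for contrast, for LAMA5, LAMB1 and LAMC1. They are RefSeq sequences on GRCh38.p14, 250 bases each, and RefSeq promoter entries were matched for 8 of the 9 chains. Capitals mark every match to TGACTCA, the core letters of an AP-1 site, or to GGGCGG, the GC box, on either strand (the reverse complements are TGAGTCA and CCGCCC). The LAMA3 window is chr18:23872770-23873019 (+ strand). The LAMB3 window is chr1:209651375-209651624 (- strand), the most downstream of its 3 RefSeq starts. The other LAMB3 windows are not shown and held no AP-1 match. Those of LAMA5, LAMB1 and LAMC1 are chr20:62367313-62367562 (- strand), chr7:108003162-108003411 (- strand) and chr1:183023170-183023419 (+ strand).

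LAMA3: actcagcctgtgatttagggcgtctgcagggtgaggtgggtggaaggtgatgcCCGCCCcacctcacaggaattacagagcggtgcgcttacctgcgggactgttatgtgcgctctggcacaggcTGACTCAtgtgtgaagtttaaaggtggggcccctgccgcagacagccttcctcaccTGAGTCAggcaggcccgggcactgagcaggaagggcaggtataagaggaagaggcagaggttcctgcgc
LAMB3: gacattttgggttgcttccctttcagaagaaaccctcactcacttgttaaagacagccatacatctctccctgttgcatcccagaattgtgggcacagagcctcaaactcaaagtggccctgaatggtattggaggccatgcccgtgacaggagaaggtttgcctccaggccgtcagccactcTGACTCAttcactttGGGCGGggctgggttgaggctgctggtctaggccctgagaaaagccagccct
LAMA5: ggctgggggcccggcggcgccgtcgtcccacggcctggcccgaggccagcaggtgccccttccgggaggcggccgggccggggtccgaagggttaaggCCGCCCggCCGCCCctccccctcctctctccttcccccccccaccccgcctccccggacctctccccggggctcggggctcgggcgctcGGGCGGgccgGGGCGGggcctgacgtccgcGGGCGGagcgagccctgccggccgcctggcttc
LAMB1: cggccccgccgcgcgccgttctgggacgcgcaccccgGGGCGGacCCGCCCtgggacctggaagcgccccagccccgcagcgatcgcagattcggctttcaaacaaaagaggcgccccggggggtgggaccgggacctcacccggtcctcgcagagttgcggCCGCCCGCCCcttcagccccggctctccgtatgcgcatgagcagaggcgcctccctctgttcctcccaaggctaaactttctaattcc
LAMC1: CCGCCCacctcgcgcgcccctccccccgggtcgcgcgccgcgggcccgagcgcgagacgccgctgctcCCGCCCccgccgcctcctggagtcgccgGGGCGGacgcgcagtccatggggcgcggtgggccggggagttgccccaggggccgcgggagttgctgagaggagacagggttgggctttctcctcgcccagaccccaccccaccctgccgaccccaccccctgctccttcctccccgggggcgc

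The LAMA3 window held 2 AP-1 matches, at positions -125 to -119 and -69 to -63 from the transcript start, and the LAMB3 window held 1, at -67 to -61. The windows of the other LAMB3 starts and of LAMA2, LAMA4, LAMA5, LAMB1, LAMB2 and LAMC1 held none of these letters. Over all 35116 promoter windows of the same length, 4.2% held the AP-1 letters and 0.182% held 2 or more matches. LAMA5, LAMB1 and LAMC1 held 5, 4 and 3 GC boxes (in LAMB1 a pair overlaps). LAMB2, LAMA3 and each of the 3 LAMB3 windows held 1, LAMA2 and LAMA4 held 0, and 42.6% of all windows held at least 1. LAMB2, the beta chain of laminin 521, thus had as few as the chains of laminin 332. The windows of LAMA5, LAMC1 and LAMB1 were 82.8%, 79.6% and 70.4% G or C. LAMB2 was at 58.4%, LAMA3 at 60.4% and the LAMB3 windows at 64.0%, 60.0% and 54.0%, near the median of 58% over all windows. LAMA2 and LAMA4 were at 53.2% and 48.4%. A match is a description of letters, not a site shown to be used. The LAMA3 start used here is that of the short form, which begins inside the gene (chromosome 18, 23689453 to 23956222 on GRCh38). It was the only LAMA3 promoter entry, and the sequence upstream of the long form was not searched. GENCODE release 29 lists 10 coding transcripts for LAMA3, from 462 to 10661 bases, and the deposited counts sum over all of them, so the long and short forms were not told apart.

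The levels and shares that follow rest on total counts of 22978408 to 26495444 per library. S-AlgLung replicate 3 stood apart from the other S-AlgLung libraries on the second principal component (49.2, against -20.2 and -33.4). Its share of counts from the nuclear RNAs MALAT1 and NEAT1 was 0.0264%, against at most 0.00736% in the other 5 libraries. The fold change of each tested chain is therefore also given without it. Epithelial markers (EPCAM, KRT8, KRT18, KRT19 and CDH1) summed to 4455 to 11996 CPM (TMM-scaled counts per 1e6) in S-AlgLung and 10034 to 13216 CPM in AlgLung. Defining markers of leukocytes (PTPRC), fibroblasts (DCN) and endothelium (CDH5) reached at most 0.211, 0.0355 and 1.86 CPM in any library, and the muscle marker DES was at 0 in all 6. The summed leukocyte list of 5 genes, led by CD14, was higher in S-AlgLung (48.0 to 74.2 CPM) than in AlgLung (32.5 to 39.4 CPM). The 6 fibroblast markers, led by COL3A1, summed to 7.22 to 9.27 CPM in S-AlgLung and 7.62 to 8.05 CPM in AlgLung, and the 5 endothelial markers, led by PECAM1, to 3.167 to 3.802 CPM in S-AlgLung and 2.34 to 3.68 CPM in AlgLung. The 4 muscle and Schwann cell markers, led by MYH11, summed to 6.22 to 6.85 CPM in S-AlgLung and 6.29 to 9.98 CPM in AlgLung. The part of these marker levels in the values of the laminin chains was not tested.

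LAMA3 encodes the alpha chain of laminin 332. Its counts were 61, 55 and 171 in the S-AlgLung libraries, against 846, 404 and 558 in the AlgLung libraries. As CPM, it stood at 2.77, 2.32 and 6.08 in S-AlgLung and at 32.4, 18.2 and 23.1 in AlgLung. Every S-AlgLung value lay below every AlgLung value, and S-AlgLung replicate 3 was the highest of its group. The log2 fold change, S-AlgLung over AlgLung, was -2.71 (SE 0.30, n = 3 each), and without S-AlgLung replicate 3 it was -3.30 (SE 0.26). The spread of LAMA3 among replicates was wide. Its SD of log2 CPM was 0.72 in S-AlgLung, above that of 93.8% of tested genes, and 0.42 in AlgLung, above 85.8%. In bulk RNA, fewer cells that express LAMA3 and less LAMA3 RNA per cell cannot be told apart.

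LAMB3 encodes the beta chain of laminin 332 (chromosome 1, 209614870 to 209652425). It stood at 101.0, 87.2 and 65.8 CPM in S-AlgLung and at 105.1, 114.8 and 101.9 CPM in AlgLung. The groups did not overlap, but the highest S-AlgLung library lay close to the lowest AlgLung library. The log2 fold change was -0.34 (SE 0.23), which did not pass, and without S-AlgLung replicate 3 it was -0.22. Within each library, LAMB3 exceeded LAMA3 per kilobase of exon 113.9-, 117.1- and 33.7-fold in S-AlgLung and 10.1-, 19.7- and 13.8-fold in AlgLung. The ratio was thus higher in every S-AlgLung library than in any AlgLung library, and the lowest of the 3 S-AlgLung ratios was again replicate 3.

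**Figure D1:**
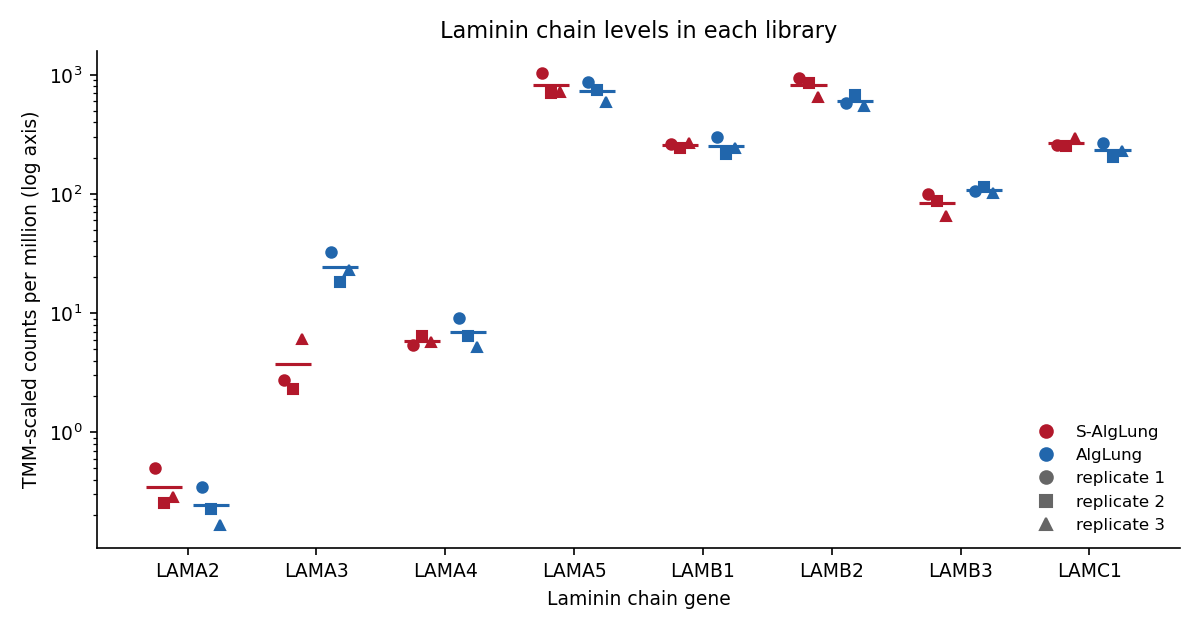
TMM-scaled CPM (log axis) of 8 laminin chain genes in each library, S-AlgLung in red and AlgLung in blue, with symbols for the replicate and a line at the mean of 3 libraries. LAMA3 is at 2.32 to 6.08 CPM in S-AlgLung and 18.2 to 32.4 in AlgLung, whereas LAMA5, LAMB1, LAMB2 and LAMC1 lie at 203.6 CPM or more in all libraries; LAMA1, at 0 in 5 of 6 libraries, is not drawn.

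LAMA5 encodes the alpha chain of laminins 511 and 521 (chromosome 20, 62307955 to 62367312). It was at 1032, 702.7 and 726 CPM in S-AlgLung and at 873.4, 751.8 and 590.5 CPM in AlgLung. The groups overlapped, and the log2 fold change was 0.15 (SE 0.27). Its sign was negative without AlgLung replicate 3 (-0.04) or S-AlgLung replicate 1 (-0.05), so no direction can be given. Without S-AlgLung replicate 3 it was 0.20. LAMA5 made up 98.6% ± 0.427 of the alpha chain total per kilobase in S-AlgLung and 95.8% ± 0.804 in AlgLung (SD, n = 3 each).

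LAMC1 encodes the gamma chain shared by all the trimers named above except laminin 332 (chromosome 1, 183023420 to 183145592). It stood at 257, 253.3 and 296.2 CPM in S-AlgLung and at 268.7, 203.6 and 229.9 CPM in AlgLung, with overlapping groups and a log2 fold change of 0.20 (SE 0.24). Without S-AlgLung replicate 3 this was 0.092, and without AlgLung replicate 2 it was 0.105. LAMB1, the beta chain of laminins 111, 211, 311, 411 and 511 (chromosome 7, 107923799 to 108003213), was at 265, 242.7 and 269.4 CPM in S-AlgLung and at 299.6, 215.1 and 242 CPM in AlgLung. Its log2 fold change was 0.04 (SE 0.24), and its sign changed with scaling by total counts (-0.07) and without AlgLung replicate 2 (-0.07), AlgLung replicate 3 (-0.04) or S-AlgLung replicate 3 (-0.02). The ratio of LAMC1 to LAMB1 per kilobase was 2.28 ± 0.143 in S-AlgLung and 2.05 ± 0.0656 in AlgLung, and every S-AlgLung library (2.13 to 2.42) was above every AlgLung library (1.97 to 2.09). This ratio depends on the length used: with the longest coding transcripts it was 0.758 ± 0.0476 in S-AlgLung and 0.681 ± 0.0218 in AlgLung, so which of the chains is more abundant cannot be said. LAMB1 was among the steadiest genes across S-AlgLung libraries, with an SD of log2 CPM of 0.081 against a median of 0.31 over tested genes. Across AlgLung libraries it was not, with an SD of 0.242 against a median of 0.231.

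LAMB2 encodes the beta chain of laminins 221, 321, 421 and 521 (chromosome 3, 49121114 to 49133118). It was at 938.3, 863.9 and 658.5 CPM in S-AlgLung and at 578.7, 676.2 and 550.4 CPM in AlgLung. The lowest S-AlgLung library, replicate 3, fell within the AlgLung range, and the log2 fold change was 0.45 (SE 0.26), or 0.55 without that library. It did not pass in either fit. Per kilobase, LAMB2 exceeded LAMB3 6.29-, 6.70- and 6.78-fold in S-AlgLung and 3.73-, 3.99- and 3.66-fold in AlgLung, with no overlap between groups.

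LAMA4, the alpha chain of laminins 411 and 421 (chromosome 6, 112107931 to 112254939), was low. It stood at 5.40, 6.38 and 5.72 CPM in S-AlgLung and at 9.08, 6.38 and 5.17 CPM in AlgLung, with overlapping groups and a log2 fold change of -0.24 (SE 0.25). It was -0.26 without S-AlgLung replicate 3, -0.03 without AlgLung replicate 1 and -0.46 without AlgLung replicate 3. LAMA2, the alpha chain of laminins 211 and 221, had 11, 6 and 8 counts in S-AlgLung and 9, 5 and 4 in AlgLung, too few to test. LAMA1, the alpha chain of laminin 111, had 0 counts in all S-AlgLung libraries, which allows up to 3 counts or 0.107 to 0.136 CPM in each, and 1, 0 and 0 in AlgLung. The low-count filter removed LAMA1 and LAMA2, so no difference in either was tested in the reported fit.

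Of the 9 chains, 7 passed the low-count filter, and of these 1 was called lower and 0 higher in edgeR. DESeq2 and limma-voom gave the same counts, and edgeR had 0 chains higher at an unadjusted p under 0.05. Over all tested genes, 5.14% were called in either direction. The median log2 fold change of the 7 chains was 0.04, against 0.03 over all tested genes. In 2 of the 7 chains (LAMA3 and LAMB3) the libraries of the hydrogels did not overlap, as in 18.4% of all tested genes.

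**Figure D2:**
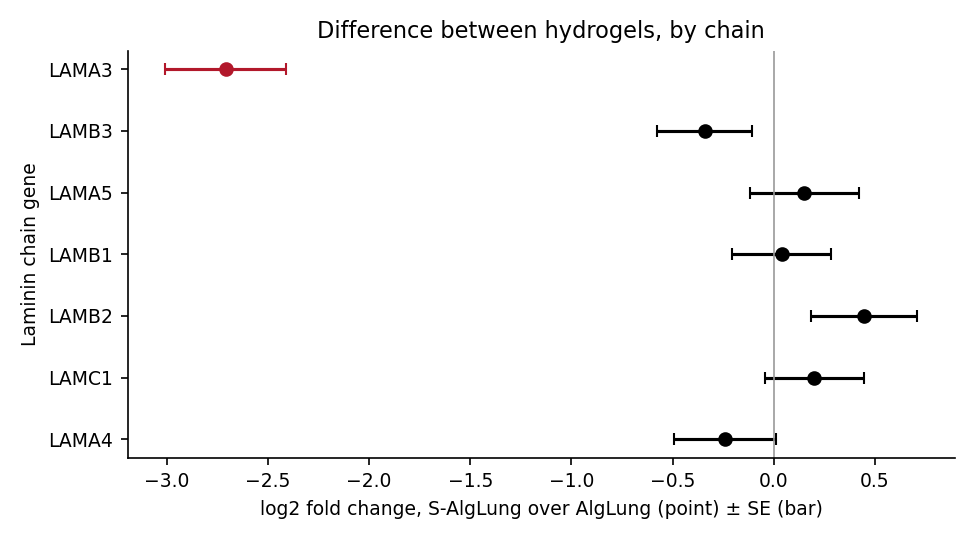
Log2 fold change (S-AlgLung over AlgLung, point) and its SE (bar) for the 7 tested chains, with the chain called lower in red and the others in black. LAMA3 is at -2.71, and the other 6 lie between -0.34 (LAMB3) and 0.45 (LAMB2).

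Levels of different chains can be compared only per length, here as CPM per kilobase of the exon length given in the deposited table. In S-AlgLung the order was LAMB2 (119.5 ± 21.1), LAMA5 (57.4 ± 12.8), LAMC1 (31.8 ± 2.81), LAMB3 (18.2 ± 3.82), LAMB1 (13.9 ± 0.768), LAMA4 (0.487 ± 0.0417), LAMA3 (0.257 ± 0.142) and LAMA2 (0.0131 ± 0.00506). In AlgLung it was LAMB2 (87.7 ± 9.61), LAMA5 (51.7 ± 9.93), LAMC1 (27.7 ± 3.88), LAMB3 (23.1 ± 1.45), LAMB1 (13.6 ± 2.32), LAMA3 (1.70 ± 0.500), LAMA4 (0.574 ± 0.167) and LAMA2 (0.00928 ± 0.00346), all as mean ± SD with n = 3. Neighbours in this order whose libraries overlapped were LAMB3 and LAMB1 in S-AlgLung and LAMC1 and LAMB3 in AlgLung. The exon length of LAMB1 in the table is 18592 bases, against 5766 for its longest coding transcript in GENCODE release 29. With coding transcript lengths, an alternative chosen after seeing the data, LAMB1 moved to the third place, at 44.9 ± 2.48 in S-AlgLung and 43.7 ± 7.49 in AlgLung. No other chain changed its order relative to the rest.

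By trimer, LAMA3 was the scarcer chain of the measured pair of laminin 332 in all 6 libraries, with either length. LAMA4, LAMA2 and LAMA1 were likewise the scarcest chains of their trimers. For laminin 521 the scarcest chain was LAMC1 with either length. For laminin 511 it was LAMB1 with the exon lengths of the table and LAMC1 with coding transcript lengths. These are levels of RNA and say nothing of the amount of assembled protein.

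Among the alpha chains, LAMA3 made up 0.262%, 0.321% and 0.811% of the total per kilobase in the S-AlgLung libraries and 3.49%, 2.30% and 3.68% in the AlgLung libraries. LAMA4 made up 0.618%, 1.07% and 0.923% in S-AlgLung and 1.18%, 0.979% and 0.996% in AlgLung, with overlapping groups. The ratio of LAMA3 to LAMA4 per kilobase was 0.424, 0.301 and 0.878 in S-AlgLung and 2.95, 2.35 and 3.69 in AlgLung. It was below 1 in every S-AlgLung library and above 1 in every AlgLung library, and S-AlgLung replicate 3 was nearest to 1. With coding transcript lengths the ratio was at most 0.652 in S-AlgLung and at least 1.75 in AlgLung. Both lengths of LAMA3 are long, at 14488 bases for all exons and 10661 for the longest transcript. A shorter form would give a higher ratio, and the forms were not told apart. The side of 1 depends on the length used: without length division LAMA3 exceeded LAMA4 in S-AlgLung replicate 3 (6.08 and 5.72 CPM). Without that library the share of LAMA3 in S-AlgLung averaged 0.292%. Among the beta chains, LAMB3 took 12.6%, 11.9% and 11.4% in S-AlgLung and 18.4%, 18.3% and 19.1% in AlgLung. LAMB2 took 79.2%, 79.8% and 77.0% in S-AlgLung and 68.5%, 73.1% and 69.6% in AlgLung, and the groups did not overlap for either chain. The share of LAMB1 overlapped, at 9.39% ± 1.94 in S-AlgLung and 11.0% ± 2.27 in AlgLung. With coding transcript lengths it was 21.8% ± 3.84 in S-AlgLung and 25.1% ± 4.42 in AlgLung. Shares add up to a whole, so one chain's gain is another's loss.

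**Figure D3:**
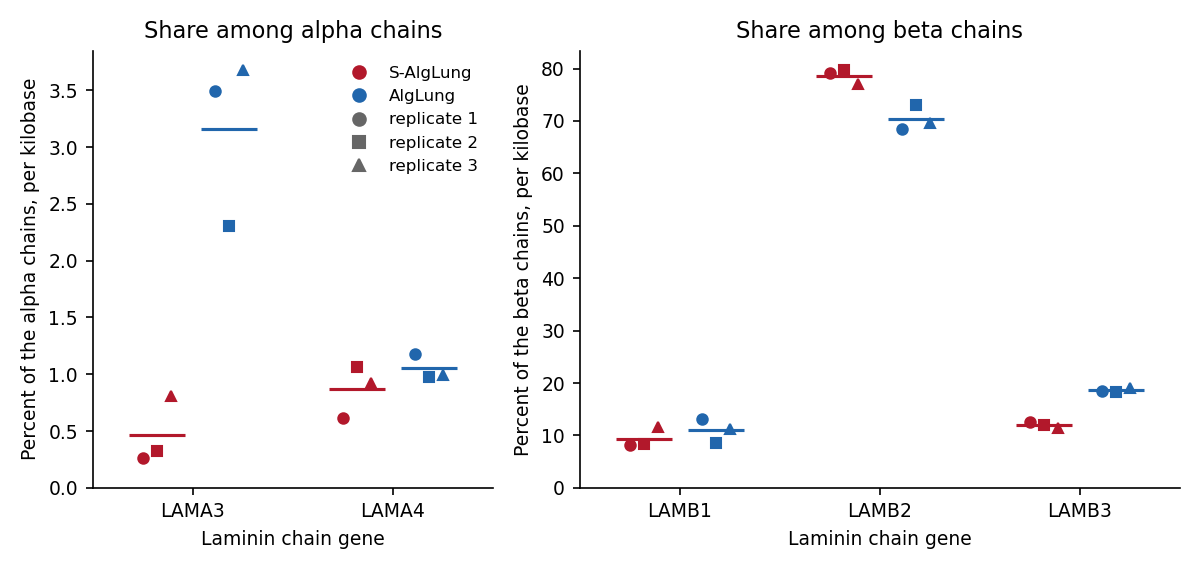
Share of LAMA3 and LAMA4 among the 5 alpha chains (left) and of LAMB1, LAMB2 and LAMB3 among these 3 beta chains (right), in percent of CPM per kilobase, by library, with a line at the mean; S-AlgLung is red and AlgLung blue. LAMA3 is at 0.262% to 0.811% in S-AlgLung and 2.30% to 3.68% in AlgLung, and LAMB3 at 11.4% to 12.6% and 18.3% to 19.1%.

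The low level of LAMA3 in S-AlgLung held in the 13 other settings tried, with log2 fold changes from -3.30 to -2.47. LAMB3 stayed between -0.49 and -0.22 and was called in none.

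**Figure D4:**
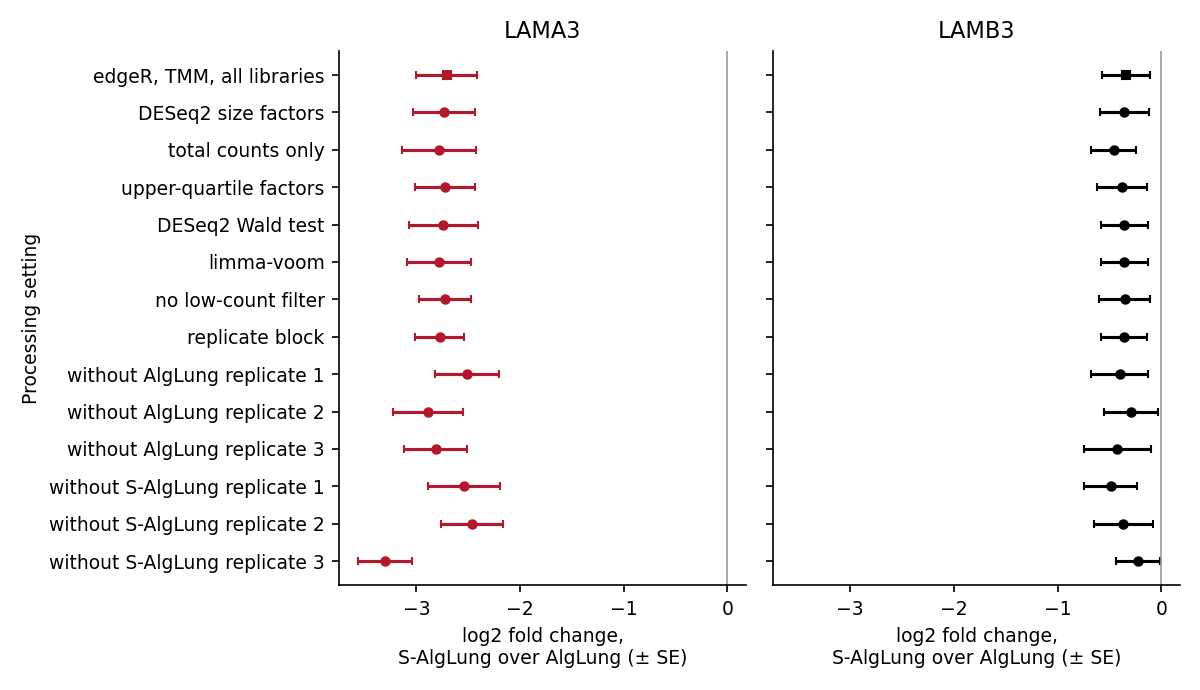
Log2 fold change of LAMA3 (left) and LAMB3 (right), S-AlgLung over AlgLung, with its SE, under the reported fit (square) and 13 alternatives (circles); red marks fits with an adjusted p under 0.05. LAMA3 runs from -3.30 to -2.47 and LAMB3 from -0.49 to -0.22.

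The genes whose profile over the 6 libraries was most like that of LAMA3 were L1CAM, ACHE, MMP2, PRR11 and CDCA5. Likeness was the root mean square difference of log2 CPM, each gene centred on its own mean, over 11517 genes with a symbol and a mean log2 CPM of at least 2. The difference was 0.59 for L1CAM and ACHE, 0.65 for MMP2, 0.66 for PRR11 and 0.67 for CDCA5, against a median of 1.49. Their log2 fold changes were -2.59, -2.21, -2.49, -1.67 and -1.77, in that order. LAMA3 was known to differ between the hydrogels, so the likeness reflects that difference and is not separate evidence. L1CAM, a neural and tumour cell adhesion molecule, was at 2.58, 1.94 and 1.74 CPM in S-AlgLung and at 12.3, 11.6 and 13.6 CPM in AlgLung. Within S-AlgLung, replicate 3 was the lowest for L1CAM and MMP2 but the highest for LAMA3 and PRR11. For ACHE and CDCA5 it lay between the others. Of the other laminin chains LAMB3 was nearest, at 1.37, in place 2498.

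Genes that act with laminins were read from 6 lists with 57 genes, of which 47 were tested. In edgeR 3 were called higher and 6 lower, where 3.15% of all tested genes were called higher and 1.99% lower. The counts of each list called are from edgeR and are read against these shares. No such share was computed at an unadjusted p under 0.05, so list counts at that threshold are not interpreted. Laminin receptors are integrins of the beta 1 and beta 4 families, dystroglycan and the Lutheran glycoprotein BCAM. The receptor list of 10 genes also holds CD151, which is not one of these receptors and is in the hemidesmosome list too. Of these 10 genes, 1 rose and 1 fell, with a median log2 fold change of -0.02. At an unadjusted p under 0.05 in edgeR, 1 was higher and 3 were lower. BCAM, a receptor for the LAMA5 chain, was at 978.3, 800.5 and 381.4 CPM in S-AlgLung and at 329, 387.9 and 298.3 CPM in AlgLung. S-AlgLung replicate 3 fell within the AlgLung range, and the log2 fold change was 1.09 (SE 0.30, edgeR adjusted p = 0.0244). ITGA2, the alpha subunit of a collagen and laminin receptor, fell to 45.4, 38.1 and 34.4 CPM in S-AlgLung, against 88.7, 55.3 and 74.8 CPM in AlgLung (log2 fold change -0.89, SE 0.23, edgeR adjusted p = 0.0171). Without S-AlgLung replicate 3, BCAM was at 1.36 on the log2 scale. The BCAM call was lost without AlgLung replicates 1, 2 or 3 (edgeR adjusted p = 0.172, 0.115 and 0.209) or S-AlgLung replicate 1 (0.218) and in limma-voom (0.0573), and that of ITGA2 without AlgLung replicates 1 or 3 (0.123 and 0.0623).

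The hemidesmosome, which ties laminin 332 to keratin filaments, and its anchoring fibrils were represented by 7 tested genes. None was called in edgeR, DESeq2 or limma-voom. At an unadjusted p under 0.05 in edgeR, 1 was higher and 2 were lower, with no share of all tested genes to compare. ITGA6, the integrin alpha subunit of the hemidesmosome, was at 73.1, 62.2 and 64.1 CPM in S-AlgLung and at 117.7, 83.2 and 101.1 CPM in AlgLung, with no overlap and a log2 fold change of -0.60 (SE 0.23, edgeR adjusted p = 0.167). COL7A1, the collagen of anchoring fibrils, was at 0.60 (SE 0.24, edgeR adjusted p = 0.192) with overlapping groups.

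Of 15 basement membrane partners, 12 were tested, 1 fell and none rose in edgeR, DESeq2 or limma-voom. In edgeR 3 were higher and 3 lower at an unadjusted p under 0.05, with no share of all tested genes to compare. COL4A2, a chain of the collagen IV network, fell to 1.59, 1.77 and 1.39 CPM in S-AlgLung, against 3.526, 4.676 and 3.601 CPM in AlgLung (log2 fold change -1.31, SE 0.30, edgeR adjusted p = 0.00605). Without AlgLung replicate 2 that call was lost (adjusted p = 0.0616). No other collagen IV chain was called in edgeR. COL4A3, COL4A4, COL4A5 and COL4A6 were at 0.50, 0.18, -0.16 and -0.47 on the log2 scale. COL4A5 and COL4A6 were more abundant than COL4A2, averaging 80.2 and 87.3 CPM in S-AlgLung and 89.6 and 121 CPM in AlgLung. COL4A1 had too few counts to test. Without S-AlgLung replicate 3, NID1, which links laminin gamma chains to collagen IV, and HSPG2, the gene of perlecan, were called higher in edgeR, with log2 fold changes of 0.75 and 0.84 (adjusted p = 0.0179 and 0.00699). With all libraries they were at 0.67 and 0.59 and did not pass (edgeR adjusted p = 0.111 and 0.323). NID1 was also called higher with the replicate block (edgeR adjusted p = 0.0481). FBLN1, the gene of the matrix glycoprotein fibulin 1, was at -0.72 (SE 0.23) and did not pass (edgeR adjusted p = 0.0728). It was called lower in edgeR with upper-quartile factors (adjusted p = 0.0420), with no low-count filter (0.0435), with the replicate block (0.0119) and without S-AlgLung replicate 2 (0.0481).

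Netrins share domains with laminin chains, and NTN4 is known to bind into laminin networks. Of 6 genes in this list 2 were tested and 1 fell. NTN4 fell to 21.4, 15.8 and 24.5 CPM in S-AlgLung, against 78, 42.8 and 63 CPM in AlgLung (log2 fold change -1.58, SE 0.24, edgeR adjusted p = 7.242e-05). Every S-AlgLung library was below every AlgLung library, and the call held in the 13 other settings.

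Among 9 genes of proteases that cut laminins or their partners, 6 were tested, and in edgeR 3 fell and 1 rose (1.99% and 3.15% of all tested genes). MMP2, a gelatinase, was at 2.49, 2.07 and 1.78 CPM in S-AlgLung and at 10.3, 13.5 and 11.6 CPM in AlgLung, and PLAT, tissue plasminogen activator, averaged 0.643 ± 0.111 CPM in S-AlgLung and 3.37 ± 0.562 CPM in AlgLung (SD, n = 3 each). Both fell in the reported fit and all 13 other settings. PLAU, urokinase, fell by 0.89 on the log2 scale, and MMP14, a membrane-bound protease that activates MMP2, rose by 1.03. For PLAU the call did not hold without AlgLung replicate 2 (edgeR adjusted p = 0.0716) or S-AlgLung replicates 1 or 2 (0.0761 and 0.0868), and an overlapping gene on the other strand had 40.6% of its counts. The MMP14 call was lost without AlgLung replicates 1, 2 or 3 or S-AlgLung replicate 1 (edgeR adjusted p = 0.221, 0.0953, 0.0876 and 0.0690) and with total counts only (0.145).

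Dystroglycan binds laminins through a sugar chain, matriglycan, that LARGE enzymes extend. All 13 genes of this glycosylation list were tested, and in edgeR 1 rose and 0 fell. DESeq2 called 2 higher and limma-voom 0. The second was B4GAT1, an enzyme that primes matriglycan, at 0.70 in edgeR (SE 0.22, adjusted p = 0.0630), at 0.68 in DESeq2 (adjusted p = 0.0356) and at 0.70 in edgeR with the replicate block (adjusted p = 0.0201). No gene was lower in DESeq2 or limma-voom or at an unadjusted p under 0.05 in edgeR. LARGE2 rose to 8.57, 5.66 and 4.05 CPM in S-AlgLung, against 2.68, 3.91 and 2.36 CPM in AlgLung (log2 fold change 1.03, SE 0.30, edgeR adjusted p = 0.0367). Its lowest S-AlgLung library was close to the highest AlgLung library, and the call was lost in 7 of 13 other settings, among them each AlgLung library left out (edgeR adjusted p = 0.206, 0.0623 and 0.259) and S-AlgLung replicate 1 left out (0.332). DAG1, the gene of dystroglycan itself, was at -0.16 (SE 0.24, edgeR adjusted p = 0.860).

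**Figure D5:**
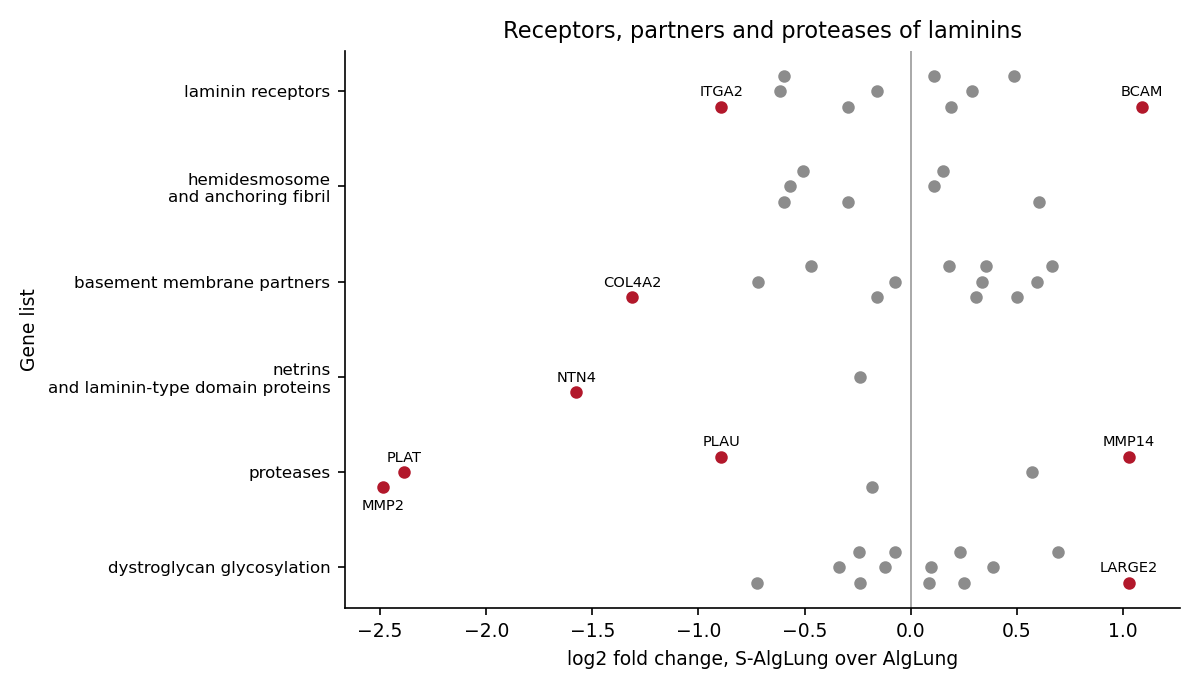
Log2 fold change, S-AlgLung over AlgLung, of the 47 tested genes in the 6 lists (genes in more than 1 list appear in each), with genes called in edgeR in red and named. MMP2 (-2.49), PLAT (-2.39) and NTN4 (-1.58) are the lowest points, and BCAM (1.09), MMP14 (1.03) and LARGE2 (1.03) the highest.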

How the data were processed

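The data are 6 RNA sequencing libraries of A549 cells, 3 from S-AlgLung and 3 from AlgLung hydrogels. Per the submitters' processing notes, the authors used STAR 2.7.3a, GRCh38 and featureCounts; the annotation and the handling of strand were not given. The values deposited are raw whole-number counts for each gene, next to its exon length. A repeated column of AlgLung replicate 1 was identical for every gene, and that library entered once. Without strand, reads of overlapping genes cannot be told apart: LAMA5 shares 244 exon bases with ADRM1, which had 17.6% of its counts, and LAMB1 shares 300 with DLD, which had 20.8%.

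Low genes were removed by filterByExpr with a minimum count of 10, libraries were scaled by TMM, and the hydrogels were compared by edgeR 4.0.16 (R 4.3.3) with Benjamini-Hochberg adjustment over 18544 genes. Each SE was derived from the fold change and its F statistic. The code was tested on simulated data. In 3 simulations it called 5.33% of 1.5-fold, 49.3% of 2-fold and 96.7% of 4-fold changes, and 6.01% of calls were false. A gene that did not pass can therefore not be taken as unchanged. The simulations changed fewer genes than were called in these data, so their rates need not hold for the reported fit. Total counts were 22978408 to 26495444 per library, and the limit of 3 counts for a gene at 0 covers counting error only. The members, lists and alternatives were chosen with earlier results of these data known. Genes named are the 9 chains, the called genes of each list and the 5 most like LAMA3. In a list with none called, the 2 with the smallest p are named. DAG1, NID1, HSPG2, FBLN1, B4GAT1, CD151, COL4A1, COL4A3, COL4A4, COL4A5 and COL4A6 were added after their values were seen. Alternatives were other scalings, DESeq2 1.42.0, limma-voom (limma 3.58.1), no filter, a replicate block, each library left out and an adjusted p under 0.01. Further laminin chain genes are not reported here.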

Additional observations from a re-analysis of the deposited data

How the results depend on the processing

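The log2 fold changes of LAMA3, LAMA4, LAMB2, LAMB3 and LAMC1 kept their direction and side of the threshold in all 13 alternatives. LAMB1 (0.04) turned to -0.069 with total counts only, and with a library left out to -0.068 (AlgLung replicate 2), -0.042 (AlgLung replicate 3) and -0.023 (S-AlgLung replicate 3). LAMA5 (0.15) turned to -0.038 without AlgLung replicate 3 and -0.049 without S-AlgLung replicate 1. Their highest values with a library left out were 0.13 for LAMB1 and 0.25 for LAMA5. The cause was not tested. Scaling by total counts moved the median of all genes by -0.10 on the log2 scale. The length of the longest coding transcript was an alternative chosen after seeing the data. Genes called higher numbered 584, against 333 with total counts only, 323 at an adjusted p under 0.01 and 289 to 891 with a library left out. Genes called lower numbered 369, against 217 at an adjusted p under 0.01 and 244 to 662 with a library left out. List genes called higher numbered 3, against 1 with total counts only, 1 with limma-voom, 5 with the replicate block, 0 at an adjusted p under 0.01 and 0 to 5 with a library left out. Whether the replicate numbers pair the libraries cannot be decided here. The correlations of same-numbered deviations were 0.072, 0.285 and 0.041, with none computed between different numbers to compare. With the replicate block, 800 genes were called higher and 500 lower. The share of LAMA3 among alpha chains moved by less than 1 SD without length division and with coding transcript lengths. Fits that leave out a library use fewer samples. Chains under about 1 CPM could not be tested.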
